A study of Homo sapiens with 36 samples.

Results

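Serine/glycine deprivation of platinum-resistant ovarian cancer cells was examined by RNA-seq in 6 of the 36 libraries of the series. Members were taken by their labels: 3 libraries of A2780 cis cells deprived of serine and glycine (cis -SG) and 3 libraries of A2780 cis cells with no treatment (cis). A2780 is a human ovarian cancer cell line, and A2780 cis is its isogenic cisplatin-resistant line, made from the parental cells (wt) by chronic exposure to cisplatin. Both groups therefore carry the resistance, and neither received carboplatin. For comparison, the same deprivation was read in wt cells (wt and wt -SG, 3 libraries each) and in A2780 cis SSP cells (cis SSP and cis SSP -SG, 3 libraries each), a line that grew out of cis cells under serine/glycine deprivation and regained activity of the serine synthesis pathway. Each line is a single line and not a set of clones. The deprivation medium was a homemade RPMI with dialyzed serum, whereas maintenance medium held undialyzed serum, and the sources used here do not say which of these the untreated libraries had. Removal of serine and glycine and a change of medium or serum therefore cannot be told apart. The study's figure legends describe 3 technical replicates per condition, and p-values here measure the spread between such libraries, not between independent cultures.

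Serine is made from the glycolytic intermediate 3-phosphoglycerate by the enzymes PHGDH, PSAT1 and PSPH, and is converted to glycine by the serine hydroxymethyltransferases, which pass the one-carbon unit to folate for the synthesis of nucleotides. When an amino acid runs short, uncharged tRNA activates the kinase GCN2, phosphorylated eIF2 lowers translation in general while that of the transcription factor ATF4 rises, and ATF4 switches on genes of amino acid synthesis, uptake and tRNA charging together with the feedback genes of this integrated stress response.

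Each cis library held 15287889 to 18768404 counts on genes, and each cis -SG library 18106974 to 18653653. Of the 57820 genes in the table, 14122 had enough counts to be tested. Deprivation moved most of them: 10590 genes, 75.0% of those tested, were called by the quasi-likelihood test of edgeR (Benjamini-Hochberg adjusted p under 0.05), with 5309 higher (37.6%) and 5281 lower (37.4%) in cis -SG. The sign of a log2 fold change below is positive where cis -SG was higher. The median over all genes was 0.01, and the median of the absolute value 0.39. Since most genes passed the test, counts of called members are read against these shares and against the genes that changed at least 2-fold. Those were 2210 genes (15.6% of those tested), with 1581 higher (11.2%) and 629 lower (4.45%). The balance was thus even over all calls and tilted upward among the larger changes, and 481 genes were up against 39 down at 4-fold or more. Genes up at least 2-fold had a low starting level, with a median of 0.965 CPM in cis against 18.6 CPM for genes down at least 2-fold and 24.96 CPM for all genes tested. Genes with enough counts in a single group were tested, so a gene hardly expressed in cis could enter only by rising. The contrast in starting level therefore follows in part from the filter. CPM is the depth-scaled count, with TMM factors computed over the 36 libraries. By CPM the groups did not overlap for 76.4% of genes tested, with cis -SG above in 36.8% and below in 39.6%. Lack of overlap in a gene named below was thus the usual case. As RNA was taken from whole cultures, fewer cells in a given state and less of an RNA per cell cannot be told apart.

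Library composition moved with the condition. The share of counts on mitochondrial genes was 2.99% to 3.77% in cis and 4.72% to 6.20% in cis -SG, the share taken by the 10 most abundant genes 4.05% to 4.39% and 5.31% to 6.40%, and the share of reads on no feature 6.14% to 6.84% and 6.92% to 7.95%. None of these ranges overlapped, and their part in the results was not tested. Of 10 markers listed for the labelled ovarian cancer cells 4 were tested, and 3 of these were called higher. A marker hardly expressed in cis could enter the test only by rising, so this count follows in part from the filter. With no filter on low counts 9 were tested and 3 were higher. With at least 10 counts in every library 2 were tested and 1 was higher. VIM, vimentin, was the most abundant, at 1851 CPM in cis and 1852 CPM in cis -SG, and was not called. PAX8, MUC16 and KRT7, which define many ovarian carcinomas, had group means of at most 0.0564 CPM. Leukocyte markers summed to at most 0.270 CPM in any of the 6 libraries, and none of the 7 could be tested. KRT18, an epithelial keratin, went from 17.2, 15.9 and 18.8 CPM in cis to 41.5, 44.1 and 43.6 CPM in cis -SG.

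The first question was how the resistant cells, when deprived, expressed the enzymes that make serine and the carriers that import it. PHGDH, which catalyses the first and committed step (GRCh37 chromosome 1, 120191034 to 120286841), was measured at 151, 149.5 and 158 CPM in the 3 cis libraries and 203, 210.5 and 211 CPM in the 3 cis -SG libraries. The groups did not overlap, and the log2 fold change was 0.47 (SE 0.031, adjusted p = 3.08e-18). PSPH, the phosphatase of the last step (chromosome 7, 56078744 to 56119297), was at 81.8, 83.9 and 84.6 CPM in cis and 111, 113 and 109 CPM in cis -SG, again without overlap, with a log2 fold change of 0.44 (SE 0.036, adjusted p = 4.98e-15). PSAT1, the transaminase between them (chromosome 9, 80912041 to 80945009), was at 727, 728 and 745 CPM and 751, 765 and 730.3 CPM. These ranges overlapped, and the log2 fold change of 0.06 (SE 0.027, adjusted p = 0.0502) did not pass the threshold. An unadjusted interval of 2 SE ran from 0.0038 to 0.11. PSAT1 passed in 6 of the 14 alternative fits. Of the 3 enzymes of the pathway, 2 were thus called higher.

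Most amino acid carriers tested were called higher. SLC1A4, the transporter of alanine, serine and cysteine (chromosome 2, 65215611 to 65250999), went from 94.9, 92.8 and 93.4 CPM to 168, 173 and 175 CPM with no overlap (log2 fold change 0.91, SE 0.034, adjusted p = 1.06e-27). Its paralogue SLC1A5, the main glutamine carrier (chromosome 19, 47278140 to 47291851), was at 449, 438 and 449 CPM and 446, 466 and 447 CPM, overlapped between groups and was not called (0.05, SE 0.027, adjusted p = 0.0856). Of 16 amino acid transporters listed, 13 were tested, 10 were called higher and 2 lower, and the median log2 fold change was 0.715. SLC7A11, the cystine/glutamate exchanger, rose by 1.17 and its partner chain SLC3A2 by 1.04 on the log2 scale. The glycine transporter SLC6A9 rose from a mean of 62.1 to 107 CPM, and the lysosomal arginine sensor SLC38A9 from 13.3 to 23.2 CPM. The proton-coupled carrier SLC36A1 and the mitochondrial glutamate carrier SLC25A22 were the members called lower (-0.43 and -0.18).

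**Figure D1:**
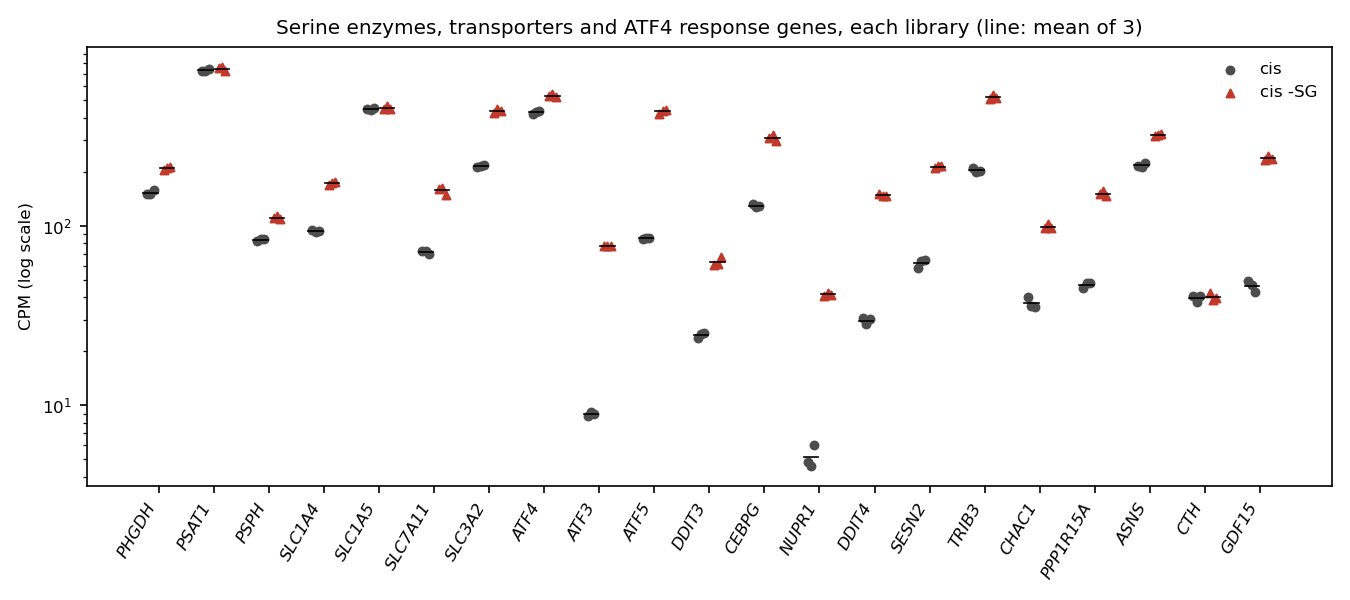
CPM (log axis) of serine synthesis enzymes, amino acid transporters and ATF4 response genes in each of the 3 cis libraries (grey circles) and the 3 cis -SG libraries (red triangles), with the mean of each group as a line. The libraries of a group lie close together, and PSAT1, SLC1A5 and CTH are the genes shown whose groups overlap.

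Most of the ATF4 programme was called higher. ATF4 itself (chromosome 22, 39915700 to 39918688), whose protein is set mainly by translation, was at 420.2, 428 and 433 CPM in cis and 529, 538 and 522 CPM in cis -SG (log2 fold change 0.34, SE 0.027, adjusted p = 1.81e-15). ATF4 was not called in one fit over the 36 libraries, where its log2 fold change was 0.28. Of the 25 ATF4 response genes, all tested, 24 were called higher and none lower, 13 of them by 2-fold or more, and the median log2 fold change was 1.05. ATF3, a transcription factor downstream of ATF4, went from 8.71, 9.14 and 8.91 CPM to 77.2, 76.6 and 76.6 CPM, a log2 fold change of 3.13 (SE 0.06, adjusted p = 5.13e-39). ATF5 rose from 83.8, 85.4 and 85.8 CPM to 419, 437 and 442 CPM (2.37, SE 0.032, adjusted p = 2.96e-45), and DDIT3, which encodes the stress factor CHOP, from a mean of 24.7 to 62.9 CPM (1.38). In each of these genes every cis -SG library lay above every cis library, as in 36.8% of all genes tested. CEBPB and CEBPG, partners of ATF4 on DNA, rose by 1.22 and 1.28 on the log2 scale.

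Feedback and signalling genes of the response moved with them. NUPR1, a small stress-induced chromatin protein, went from 4.82, 4.599 and 5.98 CPM to 40.5, 42.4 and 41.4 CPM (3.04, SE 0.081). DDIT4 and SESN2, both inhibitors of the growth kinase mTORC1, rose from 30.6, 28.2 and 30.1 to 149.8, 147 and 146 CPM and from 57.9, 63.2 and 64.4 to 209.8, 215 and 215 CPM. PPP1R15A, which encodes the subunit GADD34 that directs dephosphorylation of eIF2, rose by 1.71 (SE 0.038), and the pseudokinase TRIB3 by 1.37 (SE 0.029). CHAC1, which degrades glutathione, rose by 1.44 (SE 0.046). Among genes of metabolism, ASNS, asparagine synthetase, rose by 0.58 and PCK2, mitochondrial PEP carboxykinase, by 0.31, while CTH, which makes cysteine from cystathionine, was at 40.6, 37.6 and 40.7 CPM and 41.96, 38.4 and 39.3 CPM and was the one member not called (0.04, adjusted p = 0.5).

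Promoters of these genes were searched for TGATGNAAN, the C/EBP-ATF response element, on both strands of the 250 bases upstream of the start. RefSeq promoters (GRCh38.p14) were matched for 21 of the 26 ATF4 response genes and serine enzymes called higher, and 6 of these held the letters, against 3.13% of the 35116 promoters in the table. The first count is of genes and the second share is of promoters. Most of the genes were listed as ATF4 response genes, so matches were favoured by the choice of list. The matches are therefore not read as a result of the deprivation. Overlaps with other motifs were not searched. The stretches with the largest fold changes are printed 5′ to 3′ on the strand of the gene, to show the element in its surroundings, with the match in capitals. A match in ATF3, CEBPG and ASNS lies on the gene's strand and one in CHAC1 and HERPUD1 on the other.
ATF3 (chr1:212565176-212565264, plus strand): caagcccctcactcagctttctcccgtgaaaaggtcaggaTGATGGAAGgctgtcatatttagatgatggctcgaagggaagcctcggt
CHAC1 (chr15:40953221-40953309, plus strand): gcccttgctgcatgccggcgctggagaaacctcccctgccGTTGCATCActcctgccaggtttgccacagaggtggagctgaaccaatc
CEBPG (chr19:33374031-33374112, plus strand): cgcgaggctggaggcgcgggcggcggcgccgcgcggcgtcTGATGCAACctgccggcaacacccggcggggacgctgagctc
HERPUD1 (chr16:56931925-56932013, plus strand): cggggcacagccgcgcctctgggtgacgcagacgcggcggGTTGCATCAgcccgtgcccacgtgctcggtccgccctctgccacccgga
ASNS (chr7:97872428-97872516, minus strand): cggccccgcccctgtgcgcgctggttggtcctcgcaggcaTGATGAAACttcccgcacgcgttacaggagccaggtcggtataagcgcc
The sixth gene with a match was JDP2, a repressor of AP-1, with a log2 fold change of 0.27. The matches started 191 bases upstream of the start in ATF3, 210 in CHAC1, 42 in CEBPG, 177 in HERPUD1, 68 in ASNS and 16 in JDP2. HERPUD1, a component of ER-associated degradation, rose by 0.75.

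Upstream of ATF4, transcripts of the pathway's own machinery were mostly lower. Of 14 ISR kinase, phosphatase and eIF2 genes listed, 11 were called lower and 3 higher. PPP1R15A, the eIF2 phosphatase subunit that rose as described above, was not on this list. EIF2AK4, which encodes GCN2, fell from a mean of 139.9 to 108 CPM, and the kinase genes EIF2AK3 (PERK) and EIF2AK2 (PKR) fell as well (-0.50 and -0.56). IMPACT, an inhibitor of GCN2 activation, went the other way, from 18.1, 16.7 and 18.05 CPM to 35.4, 35.8 and 34.1 CPM (1.02, SE 0.062, adjusted p = 1.26e-19). Stress-secreted factors rose in 7 of the 8 tested. GDF15, a circulating signal of cell stress, went from 49.5, 46.6 and 42.7 CPM to 233, 244 and 234 CPM (2.39, SE 0.039, adjusted p = 4.59e-40), and the cytokine LIF from 16.9, 16.99 and 16.3 CPM to 46.4, 48.6 and 49.6 CPM (1.55). VEGFA, the angiogenic factor, rose by 1.05, and ANGPTL4, an inhibitor of lipoprotein lipase, fell by 0.59.

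The synthetases that charge tRNA moved both ways. Of 20 cytosolic members, 12 were higher and 6 lower (median 0.22), led by WARS1 (0.79), SARS1 for serine (171 to 282 CPM, 0.75), EPRS1 (0.69) and NARS1 (0.62). GARS1, which charges glycine, rose by 0.54, whereas FARSA (-0.73) and QARS1 (-0.49) fell. Of 17 mitochondrial synthetases 4 were higher and 10 lower (median -0.21), with HARS2 (-0.88) and IARS2 (-0.68) the most reduced.

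Folate enzymes also divided. Of 19 one-carbon and glycine cleavage genes tested, 5 were called higher and 12 lower (median -0.28). The hydroxymethyltransferases that interconvert serine and glycine fell: SHMT1, the cytosolic form, went from 56.2, 54.2 and 56.2 CPM to 31.7, 31.3 and 30.2 CPM (-0.81), and SHMT2, the mitochondrial form, from 334, 336 and 335 CPM to 235, 235 and 241 CPM (-0.47). SFXN1, the mitochondrial serine carrier, fell from 210.5, 203 and 217 CPM to 109, 108 and 111 CPM (-0.92, SE 0.033, adjusted p = 3.08e-28). All 3 genes had cis -SG libraries below every cis library, as had 39.6% of all genes tested. In contrast ALDH1L2, which oxidises 10-formyl-tetrahydrofolate in mitochondria, rose by 1.15, and MTHFD1L by 0.61. AMT, the aminomethyltransferase of glycine cleavage, rose by 1.72 from a low mean of 3.07 CPM. MTHFD2, the mitochondrial methylene-tetrahydrofolate dehydrogenase, rose by 0.23.

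Nucleotide synthesis was lower for most members. Of 15 purine genes 10 fell and 4 rose (median -0.31), and of 18 pyrimidine and deoxynucleotide genes 12 fell and 4 rose (median -0.37). RRM1, the large subunit of ribonucleotide reductase, went from 249, 245 and 257 CPM to 98.04, 108 and 105 CPM (-1.25) and RRM2, its small subunit, fell by 0.84. The p53-induced small subunit RRM2B rose by 0.87. In the methionine cycle, with 5 genes higher and 7 lower of 13, MAT2A, which makes the methyl donor S-adenosylmethionine, rose from 297, 303 and 294 CPM to 455, 463 and 489.98 CPM (0.68), and AHCY, which clears S-adenosylhomocysteine, fell from a mean of 1659 to 1103 CPM (-0.56).

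Genes of cell division fell as a block. Of 36 mitosis and G2/M genes, 35 were called lower, 24 of them by 2-fold or more, against 4.45% of all genes tested, and the median log2 fold change was -1.27. Summed over the list, expression went from 6612 to 6744 CPM in cis to 2810 to 2893 CPM in cis -SG. KIF20A, a kinesin of cytokinesis, went from 146, 139.8 and 151 CPM to 30.7, 30.7 and 31.8 CPM (-2.20, SE 0.043, adjusted p = 7.13e-39). DLGAP5, a spindle protein, went from 137, 134 and 138 CPM to 29.7, 28.8 and 29.4 CPM (-2.19). MKI67, the proliferation marker Ki-67, went from 702, 771 and 753 CPM to 183, 178 and 175 CPM (-2.03, SE 0.031, adjusted p = 3.14e-39). The groups stood far apart in each, and BUB1, a checkpoint kinase, fell by 1.94 in the same way. The exception was BUB3, another checkpoint protein, called higher at 0.11 in the fit reported and in 12 of 14 alternatives.

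DNA replication genes fell in 35 of 36 cases, by a smaller median of -0.55. ORC1, a subunit of the origin recognition complex, went from 67.4, 68.2 and 69.5 CPM to 23.5, 22.7 and 21.95 CPM (-1.56), TK1, thymidine kinase, fell by 1.18, and GINS1, part of the replicative helicase, fell by 1.12. MCM5, a helicase subunit, was the one member called higher, at 152, 163 and 155 CPM and 182, 180.2 and 190.2 CPM (0.26). Regulators of G1 were mixed. CDKN1A, which encodes the CDK inhibitor p21, rose from 91.3, 92.9 and 92.8 CPM to 157, 154 and 152 CPM (0.77, SE 0.034), and CDKN1B, encoding p27, by 0.38. CDKN2C, encoding the inhibitor p18, fell from 13.5, 12.6 and 13.3 CPM to 4.04, 3.503 and 3.62 CPM (-1.78). CDK2, a kinase of S phase entry, fell by 1.04 and CCND3, cyclin D3, also fell (-1.06), while CCND2, the abundant D cyclin of these cells, was at a mean of 1281 and 1219 CPM and was not called.

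Of 21 p53 target genes tested, 17 were called higher and 3 lower (median 0.45). GADD45A, a growth arrest gene, went from 16.9, 16.5 and 16.4 CPM to 55.1, 59.7 and 56.99 CPM (1.81), and ZMAT3, an RNA-binding regulator, rose by 1.08. DDB2, a sensor of UV damage, fell from 72.3, 75.3 and 72.8 CPM to 35.5, 36.7 and 37.2 CPM (-0.98). Several of these genes also respond to ATF4 or CHOP. Several pro-apoptotic members of the BCL2 family rose: HRK from 1.65, 1.73 and 0.959 CPM to 19.7, 18.6 and 19.2 CPM (3.75), BBC3, which encodes PUMA, from 20.1, 18.9 and 16.9 CPM to 62.7, 62.6 and 62.1 CPM (1.78), PMAIP1, encoding NOXA, by 1.54, and BCL2L11, encoding BIM, by 1.27. The anti-apoptotic MCL1 rose as well, from a mean of 376 to 639 CPM (0.79), whereas BCL2L1 was at 60.2 and 62.2 CPM and was not called. BAD, another pro-apoptotic member, fell by 1.21, and further pro-apoptotic members were also called lower, by less. In all, 8 of the 16 BCL2 family genes tested were higher and 5 lower.

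Of 13 clustered histone genes matched, 7 passed the filter on low counts, of which 6 were called higher and 1 lower (median 1.76). With no filter on low counts 11 were tested, 6 higher and 2 lower (median 0.55). H2AC6 went from 2.57, 2.43 and 2.26 CPM to 20.95, 20.7 and 19.9 CPM (3.11), H2BC12 from 17.2, 15.9 and 16.02 CPM to 55.2, 54.1 and 53.6 CPM (1.76) and H4C8 from 0.528, 1.03 and 0.846 CPM to 8.93, 9.47 and 9.93 CPM (3.55). Replication-dependent histone mRNAs normally end in a stem-loop and not in a poly(A) tail, and these libraries were made from RNA purified as mRNA on beads, so the values count transcripts kept by that step. Copies of these genes are near-identical, and how reads with several alignments were treated is not given in the sources used here, so their individual values are uncertain.

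**Figure D2:**
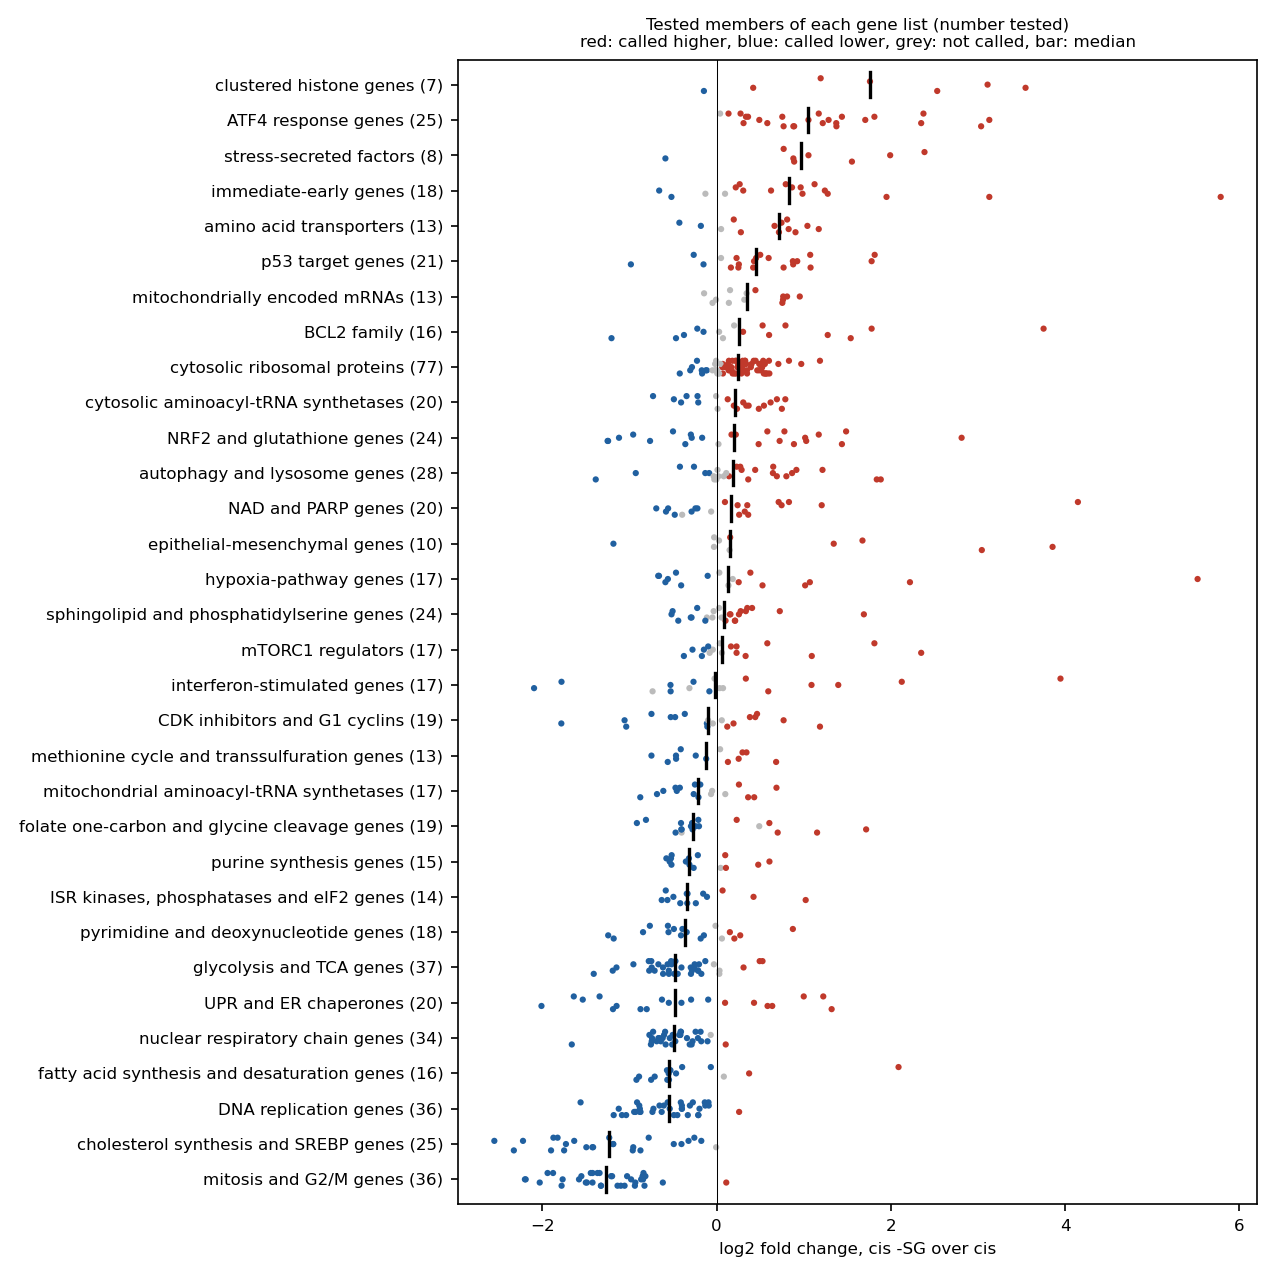
Log2 fold change (cis -SG over cis) of every tested member of the 32 gene lists with at least 5 tested members, ordered by their median (black bar). Red points were called higher, blue points lower and grey points neither. Mitosis and cholesterol genes lie at the low end and ATF4 response and histone genes at the high end.

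Cholesterol synthesis was the metabolic pathway with the lowest median among the lists. Of 25 cholesterol synthesis and SREBP genes tested, 24 were called lower and none higher, 15 of them by 2-fold or more, and the median log2 fold change was -1.23. The pathway builds sterol from acetyl-CoA under the control of the SREBP2 factor, which INSIG1 holds back in the ER when sterol is plentiful. INSIG1, itself an SREBP target, went from 104, 102 and 106 CPM to 20.2, 21.1 and 19.8 CPM (-2.33, SE 0.048, adjusted p = 5.57e-38). HSD17B7, a sterol reductase, went from 14.6, 15.1 and 16.5 CPM to 2.78, 2.74 and 2.21 CPM (-2.55). FDPS, farnesyl diphosphate synthase, went from 199, 191 and 205 CPM to 52.9, 48.6 and 54.9 CPM (-1.90). No library of one group reached the other for these genes. ACAT2, the thiolase that condenses acetyl-CoA in the cytosol, was not on the list and was among the 10 largest decreases of all genes, from 64.9, 66.3 and 70.4 CPM to 10.2, 11.7 and 10.7 CPM (-2.60). The regulators themselves moved little: SREBF2 fell by 0.40, and SREBF1 was at 141, 142 and 129 CPM and 134, 131 and 137 CPM and was not called. Of 16 fatty acid genes 13 fell and 2 rose (median -0.54), and FASN (-0.57) and ACLY (-0.71) were among those that fell. At 2-fold or more 1 was higher, at 2.09, and none lower.

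**Figure D3:**
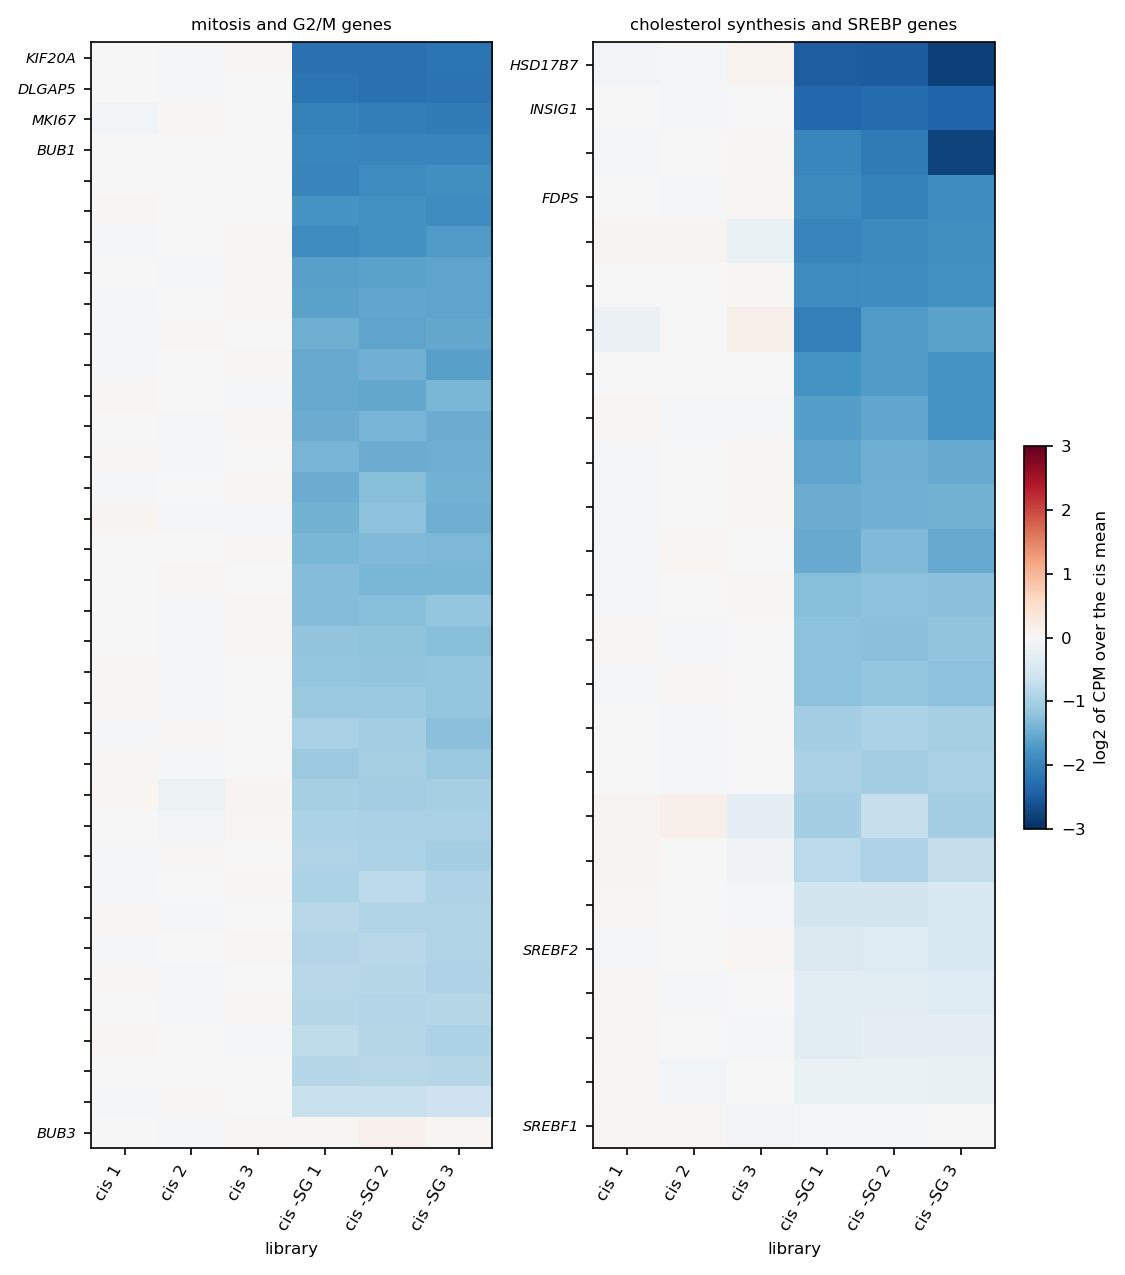
Log2 of CPM over the mean of the cis libraries for each tested mitosis and G2/M gene (left) and each cholesterol synthesis and SREBP gene (right), in the 3 cis and the 3 cis -SG libraries, ordered by fold change, with names for the genes described here. Blue is lower than the cis mean. The cis -SG columns are blue for all genes but BUB3 on the left, and on the right SREBF1, which was not called, is near the cis mean.

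Of 20 unfolded protein response genes, 7 were higher and 13 lower. The sensor genes ATF6 (124, 129 and 138 CPM to 321, 326 and 314 CPM, 1.32) and ERN1, which encodes IRE1 (1.22) rose, as did the factor XBP1, from a mean of 118 to 231 CPM. HSPA5, the chaperone BiP, rose from a mean of 2086 to 3187 CPM (0.64). Several folding factors fell, with SDF2L1 at 80.8, 84.8 and 73.6 CPM and then 19.2, 20.3 and 18.8 CPM (-2.01), CRELD2 at -1.64, MANF at -1.54, PDIA4 at -1.34 and CALR, calreticulin, at -1.15. COL3A1, a fibrillar collagen folded in the ER, went from 3554, 3564 and 3659.9 CPM to 806, 829 and 796 CPM (-2.12, SE 0.028, adjusted p = 2.18e-45). It was on the list of fibroblast and endothelial markers, where 4 of 9 were tested and 1 was called. The sum of that list was 3562 to 3669 CPM in cis and 803 to 837 CPM in cis -SG, and its other members COL1A2 and DCN had means of at most 0.637 CPM in both groups.

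Oxidative stress genes were divided. HMOX1, heme oxygenase, went from 46.4, 45.1 and 46.7 CPM to 310.4, 325 and 317 CPM (2.81, SE 0.035, adjusted p = 1.66e-46). GCLC, which begins glutathione synthesis, rose by 0.78, NQO1, a quinone reductase, by 0.89, and NFE2L2, which encodes NRF2, by 0.58. The ferritin chains FTH1 and FTL rose by 1.03 and 1.02, and FTH1 has many processed copies that could take or give reads. TKT, the pentose phosphate enzyme transketolase, went from 221, 221 and 223 CPM to 89.95, 97.2 and 87.1 CPM (-1.25), and PGD, a dehydrogenase that yields NADPH, fell by 1.12. In all, 13 of 24 NRF2 and glutathione genes were higher and 10 lower.

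Central carbon metabolism was mostly lower. Of 37 glycolysis and TCA genes 31 fell and 3 rose (median -0.47), and of 34 nuclear genes of the respiratory chain 32 fell and 1 rose (median -0.49). In one fit over the 36 libraries 22 of these respiratory genes were called lower and none higher (median -0.55). LDHA, lactate dehydrogenase, went from 1369, 1369.6 and 1434 CPM to 599.8, 633 and 614 CPM (-1.15). CS, citrate synthase, was lower (-0.96), as were IDH2, a mitochondrial dehydrogenase of the cycle (-1.41), and PC, the pyruvate carboxylase that refills it (-1.19). SLC2A1, the glucose transporter GLUT1, rose from 55.2, 52.5 and 56.6 CPM to 75.7, 80.3 and 76.2 CPM (0.53), and GOT1 by 0.49. Of the 13 mitochondrially encoded mRNAs, 6 were called higher and none lower (median 0.34). MT-CO1 was at 4316, 5364 and 4978 CPM in cis and 8182, 8829 and 10862 CPM in cis -SG (0.95, SE 0.15, adjusted p = 0.00392). These genes moved with the mitochondrial share of counts given above, whose part was not tested.

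Among NAD and PARP genes, 11 of 20 were higher and 7 lower. NMNAT2, a cytosolic NAD-synthesizing enzyme best known from axons, went from 4.03, 3.52 and 4.23 CPM to 68.6, 68.1 and 67.8 CPM (4.15, SE 0.074, adjusted p = 4.15e-40), and the nuclear enzyme NMNAT1 from 9.77, 7.52 and 8.23 CPM to 19.3, 20.1 and 18.02 CPM (1.21). PARP1, the main NAD-consuming polymerase of DNA repair, fell from 627, 635 and 649 CPM to 381, 393 and 387 CPM (-0.69). Autophagy and lysosome genes were higher in 15 of 28 cases and lower in 6. SQSTM1, the cargo receptor p62, went from 103, 107 and 106 CPM to 236, 248 and 238 CPM (1.22), and GABARAPL1 and MAP1LC3B, which coat autophagosomes, rose by 1.84 and 0.92. TFEB, a regulator of lysosome genes, fell by 1.39, and its relative MITF rose by 1.88, both from under 10 CPM. Ribosomal protein genes were higher in 59 of 77 cases and lower in 8 (median 0.25). In one fit over the 36 libraries 14 of them were called higher and the median kept its sign.

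Immediate-early genes, which answer growth factor and stress signals within minutes, were called higher in 14 of 18 cases and lower in 2 (median 0.83). JUN went from 12.7, 11.2 and 10.7 CPM to 44.2, 43.8 and 42.6 CPM (1.95, SE 0.066), JUNB from 79.7, 76.4 and 62.1 CPM to 173, 178 and 166 CPM (1.27), and FOSL1 rose by 1.24. The serum-responsive EGR1 and FOS fell, EGR1 from 339.95, 322 and 322 CPM to 200.1, 207 and 205 CPM (-0.66) and FOS with a log2 fold change of -0.52. KLF4 had the largest increase of all genes named by the rule, from 0.264, 0.325 and 0.395 CPM to 17.6, 17.3 and 19.9 CPM (5.79, SE 0.18, adjusted p = 4.31e-31). Interferon-stimulated genes showed no common direction, with 6 higher, 6 lower and 5 not called of 17. IRF1 rose from 14.1, 16.7 and 17.1 CPM to 42.4, 42.4 and 39.5 CPM (1.40), and IFI6 fell from 14.1, 14.7 and 13.5 CPM to 3.94, 3.23 and 2.52 CPM (-2.10).

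Many of the largest increases were in genes close to silent in cis, a starting level that ranking by fold favours. The 10 largest, among genes with a mean of at least 50 counts over the 6 libraries, were KLF4, EPAS1, PITPNM3, IGFN1, SLFN5, PPP1R9A, BARX2, MYO1D, MOV10L1 and DUSP4. EPAS1, which encodes the hypoxia factor HIF2A, went from 0.396, 0.325 and 0.338 CPM to 15.8, 17.4 and 15.2 CPM (5.52, SE 0.18, adjusted p = 3.11e-30). HIF1A moved the other way, from 118, 127 and 128 CPM to 76.5, 80.8 and 74.4 CPM (-0.66). Of the 17 hypoxia genes tested 7 were called higher and 7 lower. At 2-fold or more 4 were higher, EPAS1 among them, and none lower, against 11.2% and 4.45% of all genes tested. PITPNM3, a phosphatidylinositol transfer protein, was the most abundant of the 10 after deprivation, from 1.52, 1.46 and 1.64 CPM to 50.4, 47.9 and 42.2 CPM (4.95). SLFN5, a Schlafen family protein, went from 0.3299, 0.541 and 0.395 CPM to 11.8, 10.3 and 12.03 CPM (4.74), and BARX2, a homeobox factor, from 0.792, 1.24 and 1.13 CPM to 24.6, 22.99 and 21.6 CPM (4.45). CDH2, N-cadherin, started higher, at 12.5, 12.7 and 12.9 CPM, and reached 107, 102 and 98.9 CPM (3.04). Of the genes up at least 2-fold, 121 had at most 3 counts in every cis library, so their folds are set by that floor.

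The 10 largest decreases were in STAC2, PLA2G3, MEOX1, ACAT2, HSD17B7, RAB3A, S1PR5, INSIG1, TNNC1 and RAB3D. STAC2, an adaptor of calcium channels, went from 12.5, 11.5 and 14.3 CPM to 0.893, 0.766 and 0.8404 CPM (-3.90, SE 0.16, adjusted p = 4.93e-26). PLA2G3, a secreted phospholipase, went from 52.5, 57.2 and 55.3 CPM to 3.62, 4.87 and 4.15 CPM (-3.68), and MEOX1, a homeobox factor, from 10.95, 11.7 and 10.6 CPM to 0.945, 1.204 and 1.103 CPM (-3.32). RAB3A and RAB3D, small GTPases of regulated secretion, fell too (-2.47 and -2.31). The groups did not overlap for any of the 20 genes, as the rule required. Over all genes tested, the libraries of the groups did not overlap for 76.4%, with cis -SG above in 36.8% and below in 39.6%.

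**Figure D4:**
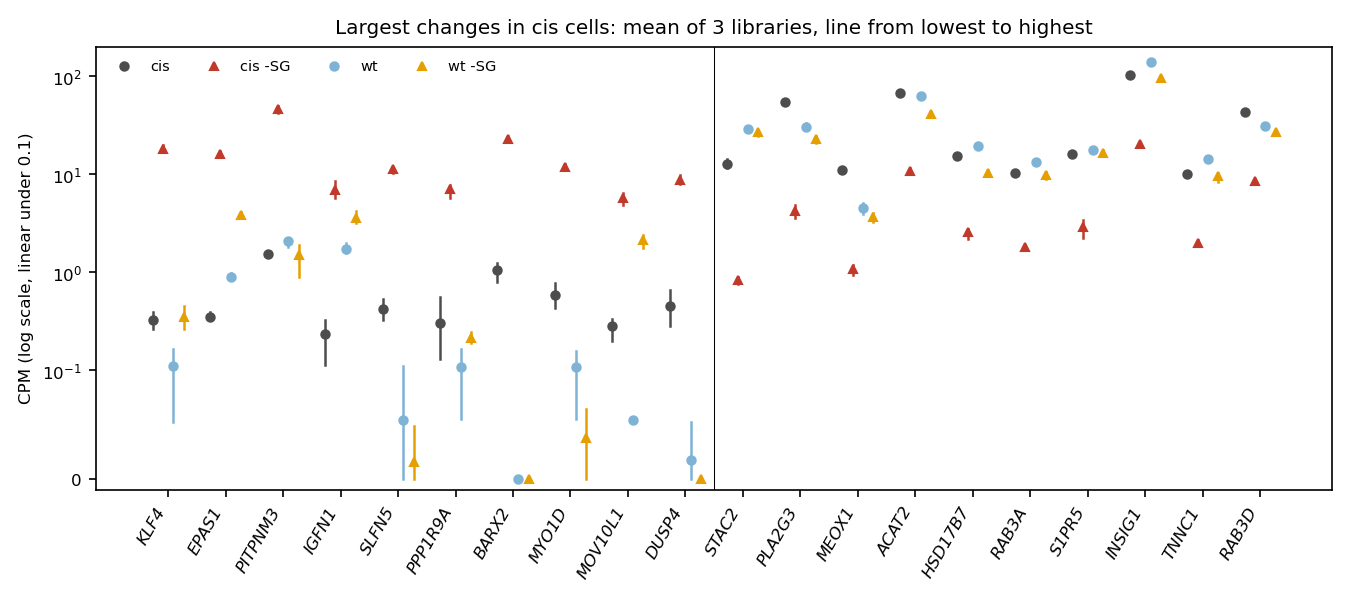
CPM (log axis, linear under 0.1) of the 10 largest increases (left of the line) and 10 largest decreases (right) in cis -SG over cis, with the means of cis, cis -SG, wt and wt -SG as symbols and a line from the lowest to the highest of 3 libraries. The genes on the left lie at 1.64 CPM or less in every cis library, and the genes on the right at 9.36 CPM or more. The genes were chosen by fold with a mean of at least 50 counts over the 6 libraries, which favours this contrast.

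The second question was whether the sensitive parental cells responded alike. In wt cells 7021 of 14284 genes were called (49.2%), with 3436 higher (24.1%) and 3585 lower (25.1%). Pairs with library 8 of wt -SG had a mean chi-square per gene of 13.5 and 7.0, against 3.55 for the other pair. The common dispersion, a measure of spread between libraries, was 0.0013 in wt and 0.0008 in cis. The shares called in wt and cis were thus taken at unequal spread. Without library 8, 7001 genes were called in wt. At 2-fold or more there were 260 genes (1.82%), of which 135 were higher (0.945%) and 125 lower (0.875%), against 2210 (15.6%) in cis. Across the 13099 genes tested in both, the median absolute log2 fold change was 0.37 in cis and 0.18 in wt, and the responses correlated with Pearson's r = 0.38 over genes, which are not independent replicates. The comparisons share no library. Of the 2210 genes that changed at least 2-fold in cis, 1670 were tested in wt, where 77.0% had the same sign, 742 were called in the same direction and 112 in the opposite one, and 63 also reached 2-fold. The difference between the responses, tested as an interaction, was called for 8321 of 15418 genes (54.0%), with 4180 more positive in cis (27.1%) and 4141 more negative (26.9%). It reached 2-fold for 1805 genes (11.7%), of which 1269 were more positive (8.23%) and 536 more negative (3.48%).

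In wt the ATF4 response genes were higher in 21 of 25 cases and lower in 3, with a median of 0.41. Of the 25, the response was more positive in cis for 19 and more negative for 2. ATF3 in wt fell by 0.36, and its response differed from that of cis by 3.50 (SE 0.091, adjusted p = 1.68e-27). ATF5 rose in both, with 1.84 in wt and a difference of 0.55. CTH rose by 1.07 in wt against 0.04 in cis, a difference of -1.02 (adjusted p = 4.28e-11). The serine pathway also differed in its parts. PHGDH and PSPH rose by 0.17 and 0.11 in wt, less than in cis, with differences of 0.32 (adjusted p = 5.74e-09) and 0.34 (adjusted p = 1.64e-07). PSAT1 rose by 0.25 and SLC1A5 by 0.33 in wt, more than in cis, with differences of -0.18 (adjusted p = 1.12e-05) and -0.26 (adjusted p = 2.71e-08). SLC1A4 rose by 0.98 in wt, and its difference of -0.06 (adjusted p = 0.456) had an interval of 2 SE from -0.19 to 0.07. SHMT2 rose in wt (0.23) and fell in cis (-0.47), with a difference of -0.69 (adjusted p = 1.23e-18).

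Division and sterol genes were lower in wt too. The mitosis list had 32 of 36 genes lower in wt, none by 2-fold, with a median of -0.30, and the response was more negative in cis for 34 of 36. The DNA replication list had 33 of 36 lower with a median of -0.33, and 21 were more negative in cis and 6 less so. Cholesterol genes were lower in 21 of 25 cases in wt (median -0.40), and more negative in cis for 21 of 25. Immediate-early genes went apart: in wt 1 was higher and 10 lower of 17 (median -0.23), and of the 19 genes tested for a difference 15 were more positive in cis and none more negative. FOSB rose by 0.99 in cis and fell by 1.21 in wt, with a difference of 2.21 (adjusted p = 1.22e-16). EGR3 showed the same split, at 0.79 and -1.38. HMOX1 was at 0.07 in wt and was not called there, with a difference of 2.76 (adjusted p = 1.21e-30). NMNAT2 was at 3.41 to 3.88 CPM in wt and 2.57 to 3.09 CPM in wt -SG, and the difference was 4.50 (adjusted p = 7.51e-23).

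**Figure D5:**
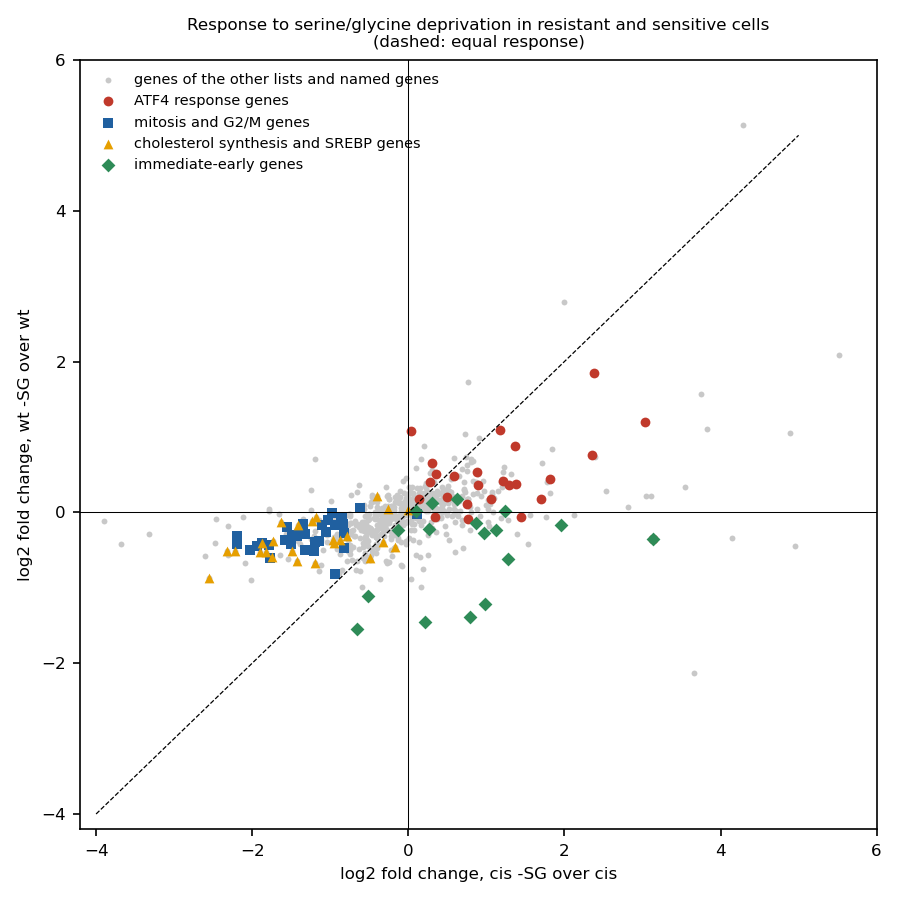
Log2 fold change on deprivation in wt (y axis) against cis (x axis) for list members and named genes tested in both, with 4 lists coloured. The dashed line marks equal responses. Mitosis and cholesterol genes lie mostly between the line and the zero of the y axis, and many immediate-early genes lie to the right of zero on the x axis and below zero on the y axis.

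The cis SSP cells, which had adapted to growth without serine and glycine, were compared next. With all 6 libraries 3 of 13736 genes were called by edgeR (0.0218%), with 907 at an unadjusted p-value under 0.05 and 103 called by DESeq2. Those 3 were higher and none was lower (0.0%). One library of each group stood apart from the other two: pairs with library 25 of cis SSP had a mean chi-square per gene of 103 and 118, against 7.4 for the other pair, and pairs with library 32 of cis SSP -SG had 110.0 and 123, against 2.74. The 2 libraries were closer to each other (12.6) than to any other library of either group (103 to 141), whereas the remaining pairs across the groups had 15.5 to 20.5. Why they stood apart, and whether their labels are right, was not tested. With both left out, a choice made after seeing the data that leaves 2 libraries a group, 4996 of 13925 genes were called (35.9%), 2625 higher (18.9%) and 2371 lower (17%). In that fit the ATF4 response genes had a median of 1.07, near the 1.05 of cis, with 23 of 25 higher and 1 lower. Their difference from cis went both ways, with 11 genes more positive in cis and 11 more negative. In contrast mitosis genes had a median of 0.04, with 11 higher and 3 lower of 36. The mitosis response was more negative in cis for 35 of the 36. All 3 serine enzymes were called higher there. PSAT1 went from 650.1 and 649 CPM in cis SSP to 1569 and 1540.5 CPM in cis SSP -SG, a log2 fold change of 1.25 (SE 0.024), and the difference from the response of cis was -1.19 (SE 0.040, adjusted p = 2.02e-28). PHGDH went from 268 and 279 CPM to 544 and 531 CPM (0.96), with a difference of -0.49 (adjusted p = 3.83e-13). PSPH rose by 0.86, with a difference of -0.42 (adjusted p = 6.92e-09), and SLC1A5, not called in cis, rose by 0.92, with a difference of -0.87 (adjusted p = 3.37e-23). Cholesterol genes had a median of -0.28, with 18 of 25 lower, and were more negative in cis for 22. Over all genes, the difference between cis and cis SSP was called in that fit for 8341 of 15057 (55.4%), with 4010 more positive in cis (26.6%) and 4331 more negative (28.8%). With libraries 25 and 32 it was called for 2533 of 14806 genes (17.1%), with 1518 more positive in cis (10.3%) and 1015 more negative (6.86%). It reached 2-fold for 1319 genes (8.91%), of which 996 were more positive (6.73%) and 323 more negative (2.18%).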

How the data were processed

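RNA was purified as mRNA on beads and made into libraries with a total RNA-seq kit, 3 for each of 12 conditions of A2780 cells. The authors deposited whole-number counts per gene from STAR alignments to GRCh37.p13, counted with HTSeq on GENCODE 19. Strand and the handling of reads with several alignments are not given in the sources used here. The 57820 genes were kept, and 3 rows naming no gene were left out (reads on no feature: 6.14% to 7.95% in the 6 libraries). Symbols came from a GENCODE 44 annotation.

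Counts were filtered with edgeR 4.0.16 (R 4.3.3), scaled by TMM and tested by quasi-likelihood with Benjamini-Hochberg adjustment, in a separate fit per comparison. Responses were compared by an interaction term over 12 libraries. DESeq2 1.42.0 was an alternative, among those described in the closing section. In simulated counts the test of cis -SG against cis recovered 197 of 200 changed genes, with 14 false calls over 14041 genes. The simulation used the common dispersion of 0.0008 and changed 200 genes, whereas 10590 of 14122 were called in the data. Its recovery and false calls therefore hold for the simulated setting and give no error rate for the real comparison.

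Members and gene lists were chosen with earlier results of these data known. The 36 lists held 781 members, of which 8 were not matched. Named are the serine enzymes, SLC1A4, SLC1A5 and ATF4, then up to 4 called members of each list and direction, the 10 largest changes in each direction without overlap, and the 5 largest interactions in each direction, with a mean of at least 50 counts. Genes named outside this rule were chosen after their values were seen, and some genes it takes are not reported here. Promoters shown are at most 5, those with a match and the largest change. Library pairs of cis and cis -SG differed by a mean chi-square per gene of 1.76 to 4.87, so none was taken for a library deposited again.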

Additional observations from a re-analysis of the deposited data

Results flagged for a closer look

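Results below were singled out because the response to deprivation differed between lines by an interaction test. It differed between cis and wt for 8321 genes and between cis and cis SSP for 2533 genes. Positive values are log2 differences in which the response of cis was the more positive.

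Among the genes of serine supply and stress signalling, the difference between cis and wt was 0.317 for PHGDH, -0.179 for PSAT1, 0.3408 for PSPH, -0.2629 for SLC1A5 and 0.4176 for ATF4. The largest differences were in genes that one line hardly expressed, where the fitted value depends on the prior count and is no bound. SLFN5 (6.032) was at 0 to 0.111 CPM in wt and 0 to 0.0491 CPM in wt -SG. MYO1D (5.778) was at no more than 0.157 CPM in any wt or wt -SG library, and ARRDC4 (5.22), an arrestin-like protein, at no more than 0.333 CPM. IL32 (5.806), a cytokine gene, fell from 6.81 to 8.76 CPM to 1.54 to 1.84 CPM in wt and rose to 1.26 to 1.79 CPM in cis -SG from at most 0.132 CPM in cis. PITPNM3 (5.415) was measured in both lines, with 1.83 to 2.26 CPM in wt and 0.894 to 1.91 CPM in wt -SG.

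In the other direction, STAC2 (-3.774) was at 27.9 to 30.4 CPM in wt and 24.9 to 28.5 CPM in wt -SG, and is the one of these 5 genes well measured in both lines. UNC5C (-5.114), a netrin receptor, was at 21.2 to 22.97 CPM in wt and 27.6 to 31.4 CPM in wt -SG but at most 0.330 CPM in cis. ST3GAL1 (-3.992), a sialyltransferase, ARHGAP20 (-3.892) and LINC02485 (-3.829), a noncoding RNA, were at no more than 0.684 CPM in any wt or wt -SG library. The differences of ST3GAL1 and ARHGAP20 lost their calls in several alternatives, and without library 9 of wt -SG that of ST3GAL1 was -0.84 and without library 7 that of ARHGAP20 was -2.74. Without library 2 of wt the difference of SLFN5 was 5.16 and not called.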

How the results depend on the processing

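No paired analysis was possible because the labels give no replicate numbers that link the libraries of one condition to those of another. For cis -SG against cis, 8386 to 11391 genes were called over the alternatives in normalization, test, filter and fit, and 10309 to 10547 when single libraries were omitted. With a log2 fold change of at least 1 required as well, the counts were 2210 for cis, 260 for wt, 1805 for the difference between cis and wt and 1319 for that between cis and cis SSP.

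One fit over the 36 libraries called 2821 genes in wt, 1530 in cis SSP, 4880 for the difference between cis and wt and 5027 for that between cis and cis SSP. In cis SSP total counts without TMM gave 1 call, no filter on low counts 5, a correction for transcript length 6 and DESeq2 103, and leaving out single libraries gave 0 to 0 calls by edgeR, where 510 to 1303 genes had p under 0.05 before adjustment. Without both libraries 25 and 32, added after seeing the data, 4996 genes were called, and 8341 for the difference from cis. Leaving out single libraries gave 6087 to 7001 calls in wt, 7894 to 8196 for the difference between cis and wt and 1829 to 3482 for that between cis and cis SSP. The causes were not tested. No named gene that was called in cis -SG against cis turned its direction. ATF4, PCK2 and MTOR lost their calls in one fit over the 36 libraries (0.28, 0.25 and -0.44), and BUB3 both there and with the length correction (0.049 and 0.060). The median of the methionine list ran from -0.18 to 0.02 over the alternatives, that of the interferon list from -0.08 to 0.04 and that of fibroblast markers from -0.15 to 0.04. Low genes limit the depth: 121 of the increased genes had at most 3 counts in each cis library.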

Other observations

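Serine is also the head of sphingolipid and phosphatidylserine synthesis, and that list moved both ways in cis -SG. Of 24 genes tested 12 were higher and 7 lower, with a median of 0.08, and one fit over the 36 libraries called 6 higher and 4 lower. KDSR, the reductase of the second step of sphingolipid synthesis, went from 75.1, 71.1 and 74.8 CPM in cis to 119.99, 122 and 116 CPM in cis -SG (0.72). PTDSS1, which makes phosphatidylserine by exchanging serine for the head group of other phospholipids, went from 303, 299 and 307 CPM to 203, 218 and 209 CPM (-0.51). Among mTORC1 regulators RRAGB, a Rag GTPase of amino acid signalling, rose from 10.4, 8.495 and 9.36 CPM to 19.01, 18.4 and 21.4 CPM (1.09), and MTOR, the kinase itself, fell from 156, 156 and 161 CPM to 123, 122 and 113 CPM (-0.38). Among epithelial-mesenchymal genes, 5 of 10 tested were higher and 1 lower. Members hardly expressed in cis could enter only by rising. With no filter on low counts 18 were tested, 6 higher and 1 lower. With at least 10 counts in every library 8 were tested, 3 higher and 1 lower. ESRP1, an epithelial splicing factor, rose from 0.132, 0.108 and 0.226 CPM to 2.57, 2.35 and 1.996 CPM (3.86). SPARC, a matrix glycoprotein, fell from 44.5, 47.3 and 49.00 CPM to 21.1, 20.6 and 19.2 CPM (-1.19). CDH2, N-cadherin, rose as described above, and the mesenchymal genes VIM and SNAI2 were not called (0.03 and -0.03). These genes thus gave no common direction between epithelial and mesenchymal expression.

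Deprivation was also read in cis cells that received carboplatin, with values from ratios of mean CPM (pseudocount 0.5) and no test. In cis -SG carbo, libraries 23 and 24 had 17.9% and 14.9% of reads on no feature, against 8.53% in library 22 and 7.25% to 8.66% in cis carbo, and their part in these values was not tested. Of the 1581 genes raised by 2-fold or more without the drug, 1576 were also higher in cis -SG carbo than in cis carbo, and of the 629 lowered genes 621 were also lower. The shares of all genes that were higher or lower there were not computed, so these counts have no background beside them. The median log2 ratio was 0.594 for ATF4 response genes (23 of 25 above 0), -1.61 for mitosis and G2/M genes (36 of 36 below 0) and -1.38 for cholesterol genes (23 of 25 below 0).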
